A study of Mus musculus with 14 samples.

Results

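Transcripts of 10 genes were followed in mouse embryonic fibroblasts: the kinase mTOR (Mtor), the subunits of its complexes Rptor, Mlst8, Akt1s1 and Rictor, the translation repressors Eif4ebp1 and Eif4ebp2, the S6 kinases Rps6kb1 and Rps6kb2, and the RNA-binding protein Larp1. They were chosen by symbol, out of 14248 genes with a listed transcript, and per gene the transcript with the highest mean RPKM was read. The study made 14 libraries from C57BL/6J fibroblasts, 7 of RNA-seq (fragments of 40 to 60 nt) and 7 of Ribo-seq (footprints of 25 to 35 nt that ribosomes shield from nuclease). The groups were Scram (a scrambled control), shMETTL3 (knockdown of METTL3, the enzyme that writes N6-methyladenosine on mRNA), shABCF1 (knockdown of the ABC-family protein ABCF1, known for its role in translation initiation) and Torin. Each assay had 2 replicates of Scram and of both knockdowns, and 1 Torin library. All cells grew in DMEM with 10% fetal bovine serum to 80% confluence and were washed and lysed with cycloheximide at 100 µg/ml. Per the labels' protocol, dishes received either DMSO or 250 nM Torin1, an inhibitor of the mTOR kinase, for 2 h. The labels do not say which libraries received DMSO, whether the Torin libraries came from Scram or wild-type cells, or whether replicates grew as separate cultures. The p-values therefore cover only the spread among these libraries.

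As background, mTOR works in a pair of complexes that share Mlst8: complex 1, with the scaffold Raptor (Rptor) and the inhibitory subunit PRAS40 (Akt1s1), and complex 2, with Rictor. Complex 1 phosphorylates the 4E-BPs (Eif4ebp1, Eif4ebp2), which in their hypophosphorylated form bind the cap-binding protein eIF4E and keep eIF4G from it, and the S6 kinases (Rps6kb1, Rps6kb2), which phosphorylate ribosomal protein S6 and eIF4B. Larp1 binds the cap and the pyrimidine-rich 5′ end of TOP mRNAs, the mRNAs of ribosomal proteins and elongation factors, whose translation falls when complex 1 is inhibited.

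The coding stretches that join the 4E-BPs to this pathway are shown because both genes had low Ribo-seq levels in Torin. The first pair encodes the motif that contacts eIF4E and the second pair the C-terminal TOS motif that contacts Raptor, read from the GENCODE M21 transcripts on GRCm38. Capitals mark the bases that differ between the genes.
Eif4ebp1 eIF4E-binding: tatgaccgGaaAtttctgAtg
Eif4ebp2 eIF4E-binding: tatgaccgAaaGtttctgTtg
Eif4ebp1 TOS: tttgagatggacatT
Eif4ebp2 TOS: tttgagatggacatC
The eIF4E-binding stretch lies in coding sequence of exon 2 at chr8:27273337-27273357 (plus strand) in Eif4ebp1 and at chr10:61435069-61435089 (minus strand) in Eif4ebp2, and 3 of 21 bases differ. The TOS stretch lies in exon 3 at chr8:27275094-27275108 and chr10:61433800-61433814, and 1 of 15 bases differs. Over the whole coding sequences the 4E-BP genes were identical at 69.1% of 349 aligned bases and the S6 kinase genes at 69.5% of 1448. The sources used here do not say how reads with several positions were counted, and values of such pairs carry that uncertainty.

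The annotated starts of 5 members are shown because Larp1 acts on mRNAs that begin with a C followed by a run of pyrimidines. Each window holds 12 bases before and 18 bases from the RefSeq start (GRCm38.p6), with the first 5 transcribed bases in capitals.
Eif4ebp2: atcgcagcgggaCGACCgggcgagagcagg
Larp1: ctaggcgcgccgGAGCCttctgcccggcgc
Mtor: gccctccccaccTCCCTggcctagaagaca
Rptor: gtgggggaagggAGGACggaacaccgagct
Rictor: gaggtttccggtGTTGTgactgaaacccgt
They lie at chr10:61452652-61452681 (minus), chr11:58009052-58009081 (plus), chr4:148448570-148448599 (plus), chr11:119602893-119602922 (plus) and chr15:6708369-6708398 (plus). Of the 8 members with a window, Eif4ebp1 and Rps6kb2 being the others, 0 had a C start with a run of 5 pyrimidines, a pattern that 2.505% of 32851 RefSeq windows held. Mtor began with T and a run of 5 pyrimidines and Mlst8 with a run of 4. A run of 5 or more from any start was held by 4.435% of windows. The RefSeq start equals the first base of the counted transcript in Larp1 and Mlst8 and lies elsewhere in the other 6, so these letters describe the annotation and not the 5′ ends present in these cells.

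The deposited unit is RPKM (reads divided by feature length and library depth), and levels below are RPKM scaled to a common median per assay. Implied depths ranged from 1764404 to 5155237 reads for the footprints and from 1197860 to 3802703 for RNA, with the Torin library the lowest in both. Replicate 1 files list transcripts from 1 read up and replicate 2 and Torin files from 5 reads up, so every library was compared with Scram of its own set and Torin with Scram replicate 2. In RNA-seq of that second set, the kept Lars2 transcript took 35.4% to 41.6% of reads, and it had no value above 0 in replicate 1. Mettl3 Ribo-seq levels in shMETTL3 were 12.3% and 38.7% of Scram, and RNA-seq levels 29.0% and 77.8%. Abcf1 Ribo-seq levels in shABCF1 were 34.2% and 50.6% of Scram, and RNA-seq levels 29.3% and 47.8%. Of 12 fibroblast markers, 11 were listed in every library, with summed RNA-seq levels of 3505 to 5113. In RNA-seq the sums were at most 5.37 for 6 blood, 1.625 for 4 endothelial and 1.82 for 3 pluripotent markers. For 6 epithelial markers they were 48.1 to 86.8. In Ribo-seq the fibroblast sums were 7909 to 15060 and the epithelial sums 78.9 to 269. The blood, endothelial and pluripotent sums were there at most 13.9, 2.19 and 4.67. In such bulk samples fewer cells of a type and less RNA per cell cannot be told apart.

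**Figure D1:**
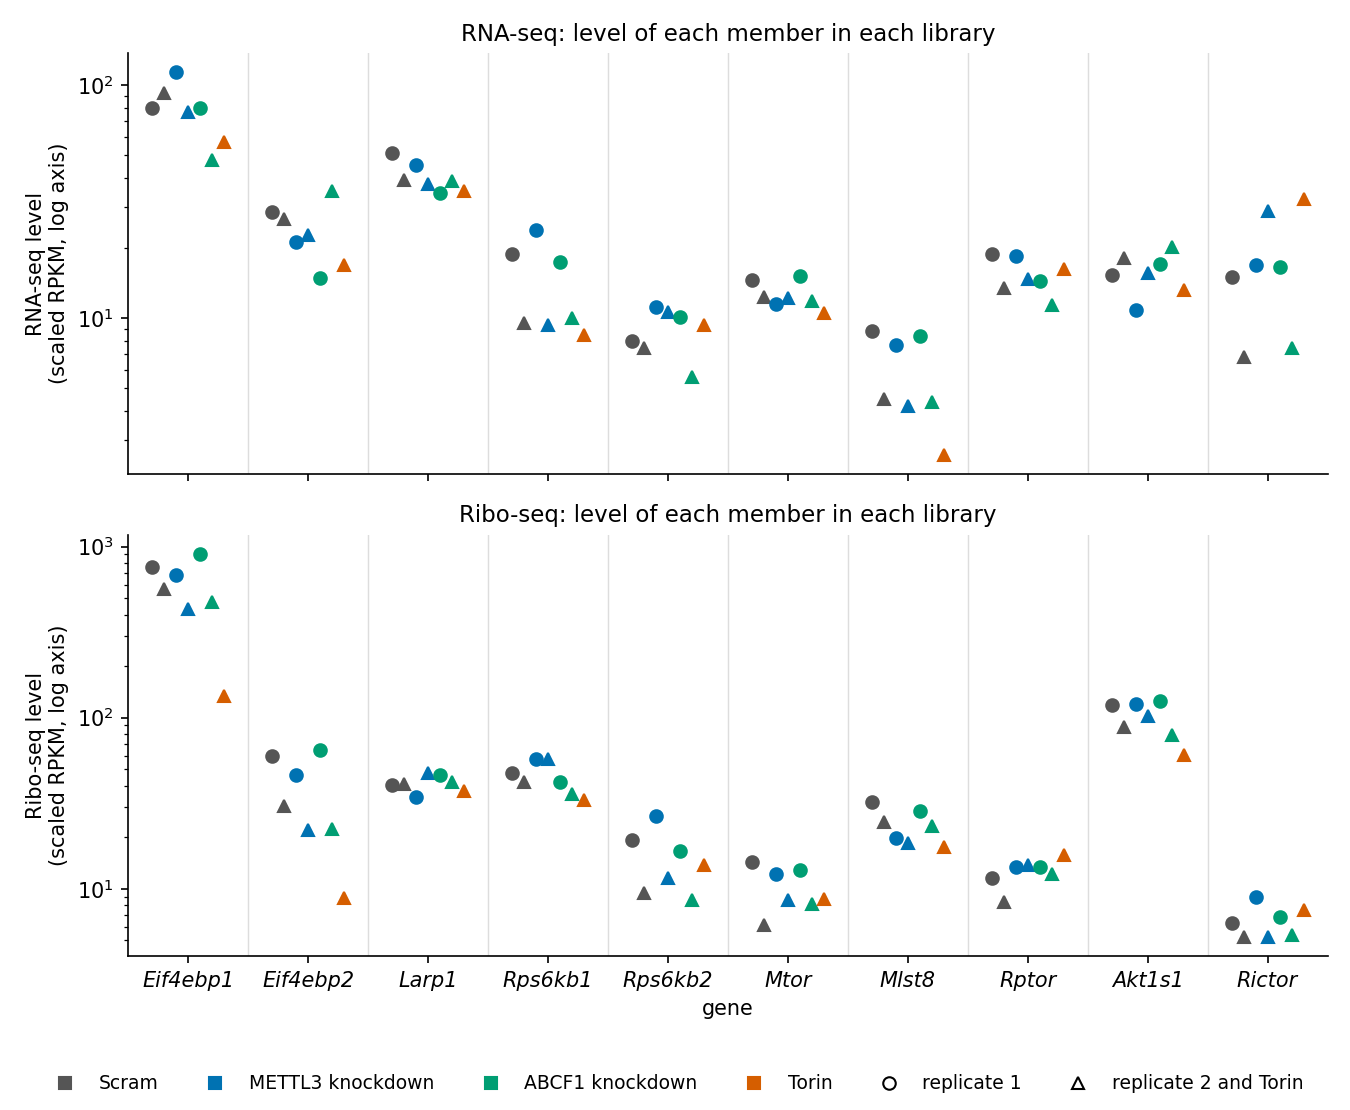
Level of each of the 10 genes in each library, RNA-seq above and Ribo-seq below, in scaled RPKM on log axes. Colours are groups, circles are replicate 1 and triangles replicate 2 and Torin. The Torin triangle of Eif4ebp1 (134) and of Eif4ebp2 (8.78) lies below all other Ribo-seq points of that gene.

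In control cells the 4E-BP1 mRNA stood far above the other members. Scram Ribo-seq levels of Eif4ebp1, the gene of 4E-BP1, were 758 and 564 in replicates 1 and 2. Akt1s1, the PRAS40 inhibitor of complex 1, came next with 118 and 88.4. The wide range of Eif4ebp2, the second 4E-BP (60.0 and 30.6), overlapped with Rps6kb1, the main S6 kinase (47.4 and 42.3), Larp1 (40.4 and 40.8) and Mlst8, the subunit of both complexes (32.0 and 24.4), which did not overlap with each other. Below it, Rps6kb2 (19.2 and 9.45), Mtor (14.4 and 6.13) and the Raptor gene Rptor (11.5 and 8.32) overlapped with each other, and Rictor (6.28 and 5.23) overlapped with Mtor. The kinase and its large scaffolds thus had the lowest density of footprints per coding base.

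The order in RNA-seq differed. Eif4ebp1 was highest with 80.2 and 92.5, then Larp1 with 51.3 and 39.1 and Eif4ebp2 with 28.5 and 26.7, with no overlap between these 3. Rptor (18.9 and 13.5), Akt1s1 (15.3 and 18.2), Rps6kb1 (18.8 and 9.57), Mtor (14.5 and 12.3) and Rictor (15.0 and 6.82) followed, and each overlapped with others of these 5, though Akt1s1 with neither Mtor nor Rictor. Rps6kb2 (7.95 and 7.46) and Mlst8 (8.82 and 4.49) were at the bottom, and their values overlapped with that of Rictor.

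Relative translational efficiency, the log2 ratio of Ribo-seq to RNA-seq level with the median gene of the library set to 0, varied widely among the members in Scram. Eif4ebp1 had 1.86 and 1.34, above 90.4% and 88.7% of genes, and Akt1s1 had 1.502 and 0.97, above 85.8% and 80.7%. Mlst8 had 0.39 and 0.96, the second close to Akt1s1, and Rps6kb1 had -0.08 and 0.78, on both sides of the median gene. The other 6 were below it in both replicates. Rps6kb2 had -0.19 and -0.95 and Eif4ebp2 -0.31 and -1.07. Larp1 (-1.70 and -1.19), Mtor (-1.38 and -2.15), Rptor (-2.03 and -1.89) and Rictor (-2.50 and -1.58) were lower, Rictor above only 3.69% and 8.44% of genes. Ribo-seq levels are per coding base and RNA-seq levels per base of the whole transcript.

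**Figure D2:**
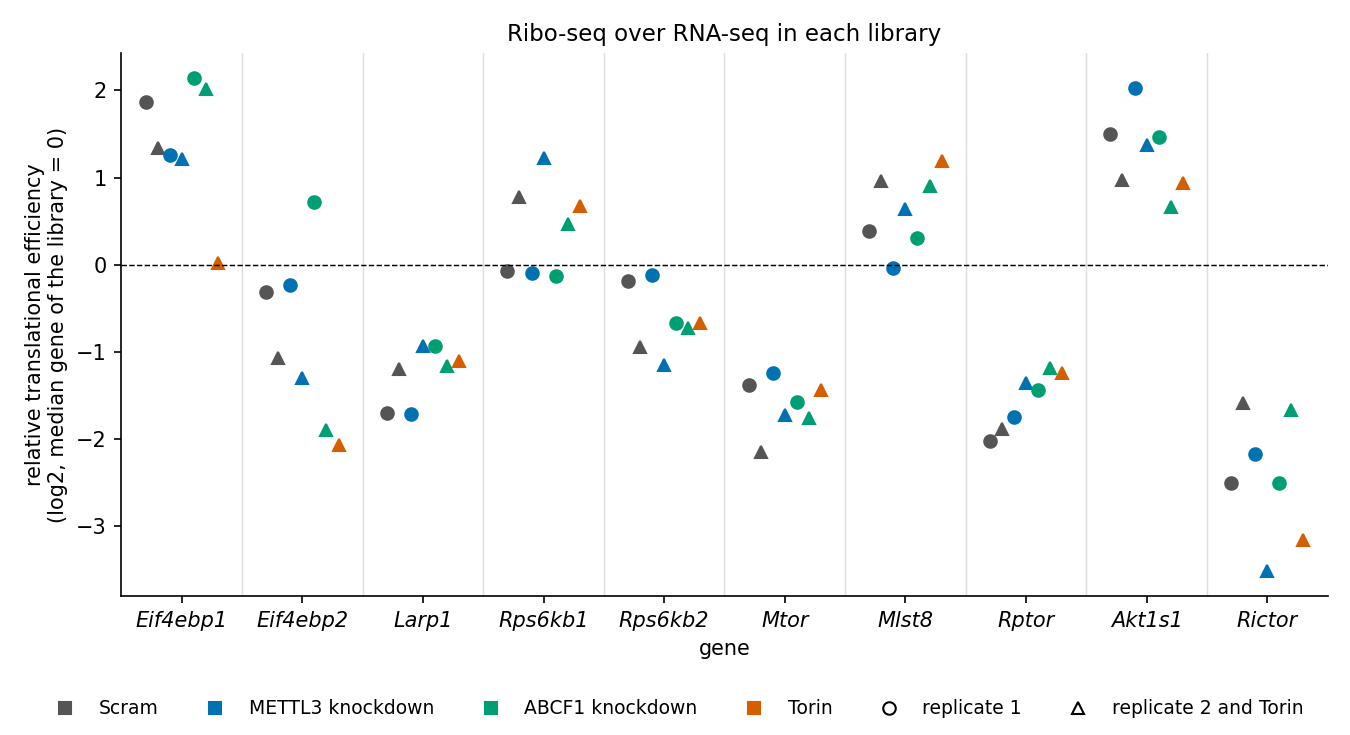
Relative translational efficiency (log2 Ribo-seq over RNA-seq level, with the median gene of each library at 0) for each gene and library. Colours are groups, circles are replicate 1 and triangles replicate 2 and Torin. Eif4ebp1 lies above 1 in each library except Torin (0.02), and Larp1, Mtor, Rptor, Rictor and Rps6kb2 lie below 0 in all 7 libraries.

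With Torin, the Ribo-seq levels of both 4E-BP genes were the lowest of all libraries, that of Rptor was the highest of all, and that of Larp1 was near Scram. The share of all genes with Torin the lowest or highest library was not computed. Eif4ebp1 lies at chr8:27260329-27276674 (plus strand, GRCm38, 3 exons) and Eif4ebp2 at chr10:61428491-61452661 (minus strand, 3 exons). The Ribo-seq level of Eif4ebp1 was 134 in Torin, against 564 in Scram replicate 2 and 433 to 908 in the other 5 libraries. That is 23.7% of Scram replicate 2, with a 95% interval of 19.1% to 29.1% from 104 against 826 reads (exact Clopper-Pearson, covering counting error only). The Torin value lies below all 6 others, and 0.599% of 9189 genes had a lower Ribo-seq difference than its -2.07 (log2). The RNA-seq level of Eif4ebp1 was 57.4 in Torin against 92.5, or 62.1% (50.01% to 76.4%), but shABCF1 replicate 2 was lower at 47.9, so here the groups overlap. The difference in translational efficiency (TE), the Ribo-seq minus the RNA-seq difference, was -1.39, with 2.22% of genes lower.

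Eif4ebp2, which encodes the second 4E-BP, had a Ribo-seq level of 8.78 in Torin against 30.6 in Scram replicate 2. The other libraries of the second set had 22.1 (shMETTL3) and 22.4 (shABCF1), and those of replicate 1 had 46.1 to 65.0. Torin was again the lowest of 7, at 28.7% of Scram replicate 2, but on 7 reads against 46 the interval ran from 10.9% to 63.9%. The RNA-seq level was 17.0 against 26.7, a value within the range of the other libraries (14.8 to 35.1). The TE difference was -1.07, with 4.56% of genes lower and a counting error of 0.61.

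The subunits of complex 1 lay on both sides of Scram. Rptor spans chr11:119603149-119899407 (plus strand, 34 exons) and Mtor chr4:148448611-148557683 (plus strand, 58 exons). The Ribo-seq level of Rptor, the scaffold that presents 4E-BPs and S6 kinases to the kinase, was 15.7 in Torin, 8.32 in Scram replicate 2 and 11.5 in Scram replicate 1. It was the highest of the 7 libraries, at 188% of Scram replicate 2 (148% to 240%), with an RNA-seq level of 121% (95.02% to 152%). Mtor had 8.69 in Torin against 6.13 in Scram replicate 2, or 142% (114% to 177%), but every replicate 1 library was higher, at 12.2 to 14.4. Akt1s1 had 60.9 in Torin, the lowest of 7, or 68.9% of Scram replicate 2 (56.0% to 84.3%), with RNA-seq at 72.3% (43.5% to 115%). Mlst8 had 17.6 in Torin against 24.4, also the lowest of 7, at 72.3% (48.4% to 106%), and shMETTL3 replicate 2 was close at 18.4.

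Rictor, the scaffold of complex 2 (chr15:6708383-6800401, plus strand, 38 exons), had its widest range in RNA-seq. Its RNA-seq level was 15.0 and 6.82 in Scram, 16.9 and 28.8 in shMETTL3, 16.6 and 7.40 in shABCF1, and 32.6 in Torin. Torin was thus at 477% of Scram replicate 2 (398% to 574%, 280 against 210 reads) and shMETTL3 replicate 2 at 422% (352% to 507%). Of the shMETTL3 replicates 1 was high and the other (16.9) was near Scram replicate 1, and the Scram value under both folds is the lowest of the 7. Ribo-seq levels of Rictor were 5.23 to 8.92 in all 7 libraries, so the TE difference was -1.65 in Torin and -1.93 in shMETTL3 replicate 2.

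The S6 kinases and Larp1 (chr11:58009064-58062031, plus strand, 19 exons) lay closer to Scram than the 4E-BPs did. Rps6kb1 had a Ribo-seq level of 33.2 in Torin against 42.3, or 78.5% (62.6% to 97.9%), and was the lowest of 7. Rps6kb2 had 13.7 against 9.45, or 145% (95.8% to 219%), within the range of the other libraries (8.60 to 26.7). Larp1 had 37.0 against 40.8 in Ribo-seq, or 90.7% (78.0% to 105%), and 35.0 against 39.1 in RNA-seq, or 89.6% (76.8% to 104%). Both Larp1 values lie within the range of the other libraries, and its TE difference was 0.02.

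**Figure D3:**
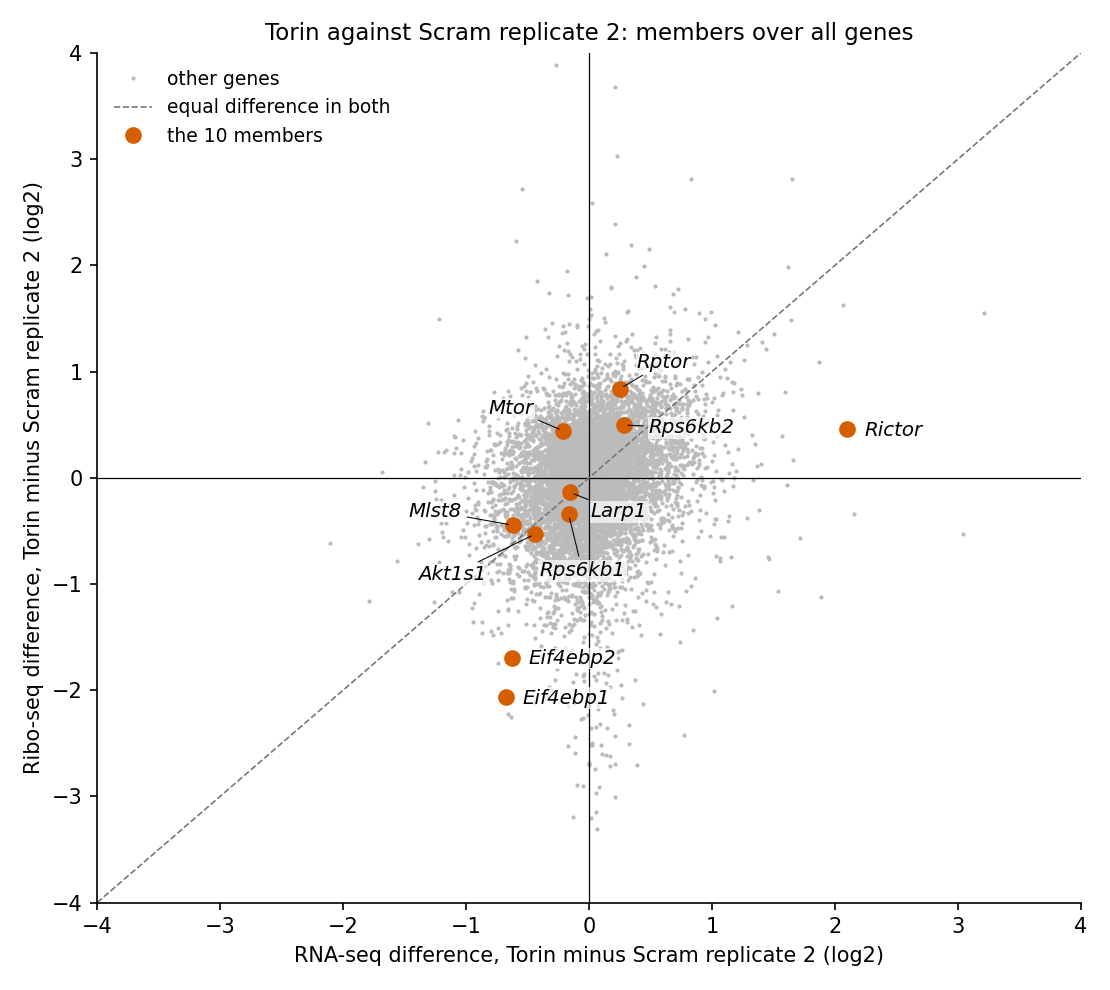
RNA-seq difference (x) against Ribo-seq difference (y) of Torin and Scram replicate 2, both in log2, for 8073 genes in grey and the 10 genes in orange. The dashed line marks equal differences. Eif4ebp1 and Eif4ebp2 lie below the line at Ribo-seq differences of -2.07 and -1.69, Rictor lies right of it at an RNA-seq difference of 2.10, and Larp1 is close to the origin.

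In RNA-seq 7 of 10 members were lower than Scram replicate 2, where 48.5% of 8236 genes were, and 3 were higher, where 51.5% were. In Ribo-seq 6 were lower and 4 higher, against 49.4% and 50.6% of 9189 genes. Past -1 in Ribo-seq were 2 members, the 4E-BPs, against 3.94% of genes, and Rictor was the 1 member past 1 in RNA-seq, against 1.06%. In TE, 3 members were below -1 (Rictor, Eif4ebp1 and Eif4ebp2), against 5.38% of 8073 genes. The median difference of the 10 members was -0.19 in RNA-seq, -0.24 in Ribo-seq and -0.04 in TE, and that of all genes 0.01, 0.01 and -0.02. Leaving out the scaling moves Torin differences by -0.17 in RNA-seq, 0.21 in Ribo-seq and 0.39 in TE. The sign then flips for Larp1 in Ribo-seq (to 0.07) and for Akt1s1 and Rps6kb1 in TE (to 0.28 and 0.18), and the TE difference of Eif4ebp2 becomes -0.72. Fibroblast markers also differed: 7 of 9 compared were lower in Ribo-seq (median -0.60) and 7 of 9 were higher in RNA-seq (median 0.19). Of 2 epithelial markers compared in Ribo-seq, 1 was higher and 1 lower. The lower one, the keratin Krt18, had 61.2 in Torin against 187, with RNA-seq levels of 65.7 against 59.2. The part of cell makeup in the members' values was not tested.

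In the fit across all genes (limma without a replicate term) 0 of 10 members and 0.0% of genes passed an adjusted p of 0.05 with Torin for RNA-seq, for Ribo-seq or for TE. At an unadjusted p under 0.05 there were 203, 304 and 255 genes, and 1 member, Eif4ebp1 in Ribo-seq. Its fitted Ribo-seq change was -2.28 (SE 0.57, limma adjusted p = 0.891), and that of Eif4ebp2 -2.17 (SE 0.87, limma adjusted p = 0.891). With the replicate as a block, Eif4ebp1 passed, at -1.95 (SE 0.28, limma adjusted p = 0.0244), the 1 member called, where 1.28% of genes were (1.17% lower). In simulated data this blocked fit also called unchanged genes for Torin. This blocked call was lost when Scram replicate 2 or any 1 knockdown library was left out, with limma adjusted p of 0.0502 to 0.0928 and changes of -1.72 to -2.05. Eif4ebp2 did not pass with the block (-1.59, SE 0.30, limma adjusted p = 0.0769), nor did Rictor in RNA-seq (1.81, SE 0.61, limma adjusted p = 0.782). The Torin spread was taken from the other groups, since there was 1 library per assay. In simulated data, where only Ribo-seq was changed and checked, the fit without a replicate term called none of the changed genes. Its counts of 0 do not show unchanged levels.

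With METTL3 knockdown the members lay on both sides of Scram, from 61.9% (Mlst8) to 165% (Rptor) in Ribo-seq, and Rictor reached 422% in RNA-seq in 1 replicate. In Ribo-seq 5 of 10 members were higher than Scram in both replicates, where 30.8% of 8356 genes were, and 3 were lower, where 26.4% were. The higher ones were Rptor (116% and 165%), Rps6kb1 (121% and 136%), Rps6kb2 (139% and 123%), Akt1s1 (102% and 116%) and Rictor (142% and 100.4%). The lower ones were Eif4ebp1 (90.1% and 76.7%), Eif4ebp2 (76.9% and 72.3%) and Mlst8 (61.9% and 75.6%). For Rps6kb1 (101% to 145%, and 113% to 162%) and Eif4ebp1 (81.0% to 99.993%, and 67.8% to 86.7%) the counting intervals of both replicates excluded 100%, by a narrow margin in replicate 1, and for the other 6 at least 1 interval included it. Mtor was at 84.6% and 141% and Larp1 at 84.8% and 116%, on opposite sides of Scram. Without scaling, which moves METTL3 replicate 2 by -0.14 in RNA-seq, the sign flips in that replicate for Rictor in Ribo-seq (to -0.08) and for Rptor in RNA-seq (to -0.01).

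In RNA-seq with METTL3 knockdown, 2 of 10 members were higher in both replicates, against 28.4% of 7873 genes, and 5 were lower, against 24.9%. Rps6kb2 was higher by similar amounts, with levels of 11.1 and 10.6 against 7.95 and 7.46, or 140% and 142%. Rictor was the other, at the unequal values given above, and the lower ones were Eif4ebp2, Mtor, Larp1, Akt1s1 and Mlst8. Eif4ebp1 was at 142% in replicate 1 (123% to 164%) and 83.0% in replicate 2 (69.4% to 98.8%), so its replicates lie on opposite sides of Scram. In TE 2 members were lower in both replicates (Eif4ebp1 and Mlst8), where 26.2% of 7527 genes were, and 3 were higher (Rptor, Akt1s1 and Mtor), where 29.0% were. Past 1 log2 unit in both replicates were 0 of 10 members, against 0.191% (lower) and 0.0508% (higher) of genes for RNA, 0.706% and 0.658% for footprints, and 0.292% and 0.306% for TE. The limma fit called 0 of 10 members and 0.0% of genes in each of the 3 measures. These counts of 0 do not show unchanged levels. In simulated data, where only Ribo-seq was changed and checked, the fit also called none of the changed genes. At an unadjusted p under 0.05 it had 62 (RNA-seq), 243 (Ribo-seq) and 45 (TE) genes and 0 members, and fitted changes were 0.43 (SE 0.32) for Rptor in Ribo-seq and 1.05 (SE 0.57) for Rictor in RNA-seq. With the block 0 members passed, against 0.0105% of genes in Ribo-seq.

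With ABCF1 knockdown the Ribo-seq levels of the members were between 73.1% and 146% of Scram. In both replicates 3 of 10 were higher, where 27.4% of 8489 genes were, and 3 were lower, where 24.7% were. Rptor was the highest of them relative to Scram, with levels of 13.4 and 12.2 against 11.5 and 8.32, or 116% (96.1% to 141%) and 146% (115% to 186%). Rictor (109% and 102%) and Larp1 (114% and 103%) were the other higher members. Rps6kb1 (88.3% and 84.3%), Rps6kb2 (86.7% and 91.0%) and Mlst8 (88.4% and 94.8%) were the lower ones. Eif4ebp1 was at 120% and 84.5% and Eif4ebp2 at 108% and 73.1%, with replicates on opposite sides.

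In RNA-seq with ABCF1 knockdown the replicates of both 4E-BPs differed from each other. Eif4ebp1 had 79.9 and 47.9 against 80.2 and 92.5 in Scram, or 99.6% and 51.8% (41.1% to 64.6%). Eif4ebp2 had 14.8 and 35.1 against 28.5 and 26.7, or 52.1% (42.8% to 63.0%) and 131% (111% to 155%). The counting intervals of the Eif4ebp2 replicates do not meet, so the spread between replicates exceeds counting error. Larp1 was at 67.2% (59.4% to 75.9%) and 99.4% (85.9% to 115%), again in 1 replicate only. Over the members 2 were higher in both replicates, against 24.3% of 7814 genes, and 4 were lower, against 29.3%. In TE 4 were lower (Akt1s1, Mlst8, Rictor and Rps6kb1), where 23.9% of 7490 genes were, and 3 were higher (Eif4ebp1, Rptor and Larp1), where 29.5% were. Past 1 log2 unit in both replicates were 0 of 10, against 0.141% (lower) and 0.192% (higher) of genes for RNA, 0.259% and 0.389% for footprints, and 0.374% and 0.414% for TE. Leaving out the scaling moves ABCF1 replicate 2 by -0.34 in RNA-seq and 0.31 in TE, and replicate 1 by 0.14 in Ribo-seq. In at least 1 replicate the sign then flips for Akt1s1, Rictor, Eif4ebp1, Mlst8 and Rps6kb1 in RNA-seq and for Akt1s1, Mlst8 and Rictor in TE, so these counts of direction rest on the scaling. The limma fit called 0 of 10 members and 0.0% of genes in the 3 measures, with 79, 106 and 38 genes and 0 members at an unadjusted p under 0.05. With the block 0 members passed the adjusted threshold. In TE 1 member, Rptor, had an unadjusted p under 0.05 with the block, as did 346 of 9428 genes. Changes with ABCF1 knockdown were not simulated. In simulated Ribo-seq changes of METTL3 knockdown and Torin, the fit without the block called none of the changed genes. Its counts of 0 here do not show unchanged levels either.

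Rptor and Rictor had Ribo-seq levels above same-replicate Scram in all 5 comparisons. Of all genes, 30.8% were higher in both METTL3 knockdown replicates, 27.4% in both ABCF1 knockdown replicates and 50.6% with Torin. The share of genes higher in all 5 was not computed. For Rictor the smallest of the 5 differences was 0.005 (log2, METTL3 knockdown replicate 2), which became -0.08 without scaling. For Rptor the differences were 0.20 and 0.66 with METTL3 knockdown, 0.20 and 0.50 with ABCF1 knockdown, and 0.84 with Torin. These comparisons share the Scram libraries, so they are not independent, and both Scram levels of Rptor (11.5 and 8.32) are the lowest of their set. TE differences of Rptor were likewise above 0, at 0.23, 0.54, 0.57, 0.72 and 0.59. Scaling left out, the TE differences run from 0.22 to 1.00. The fitted TE change with ABCF1 knockdown was 0.66 (SE 0.43 without and 0.28 with the block), with limma adjusted p of 1 and 0.998. The Rptor transcript overlaps 84 exonic bases of the antisense gene Rptoros, and strand use in counting is not stated for these files.

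**Figure D4:**
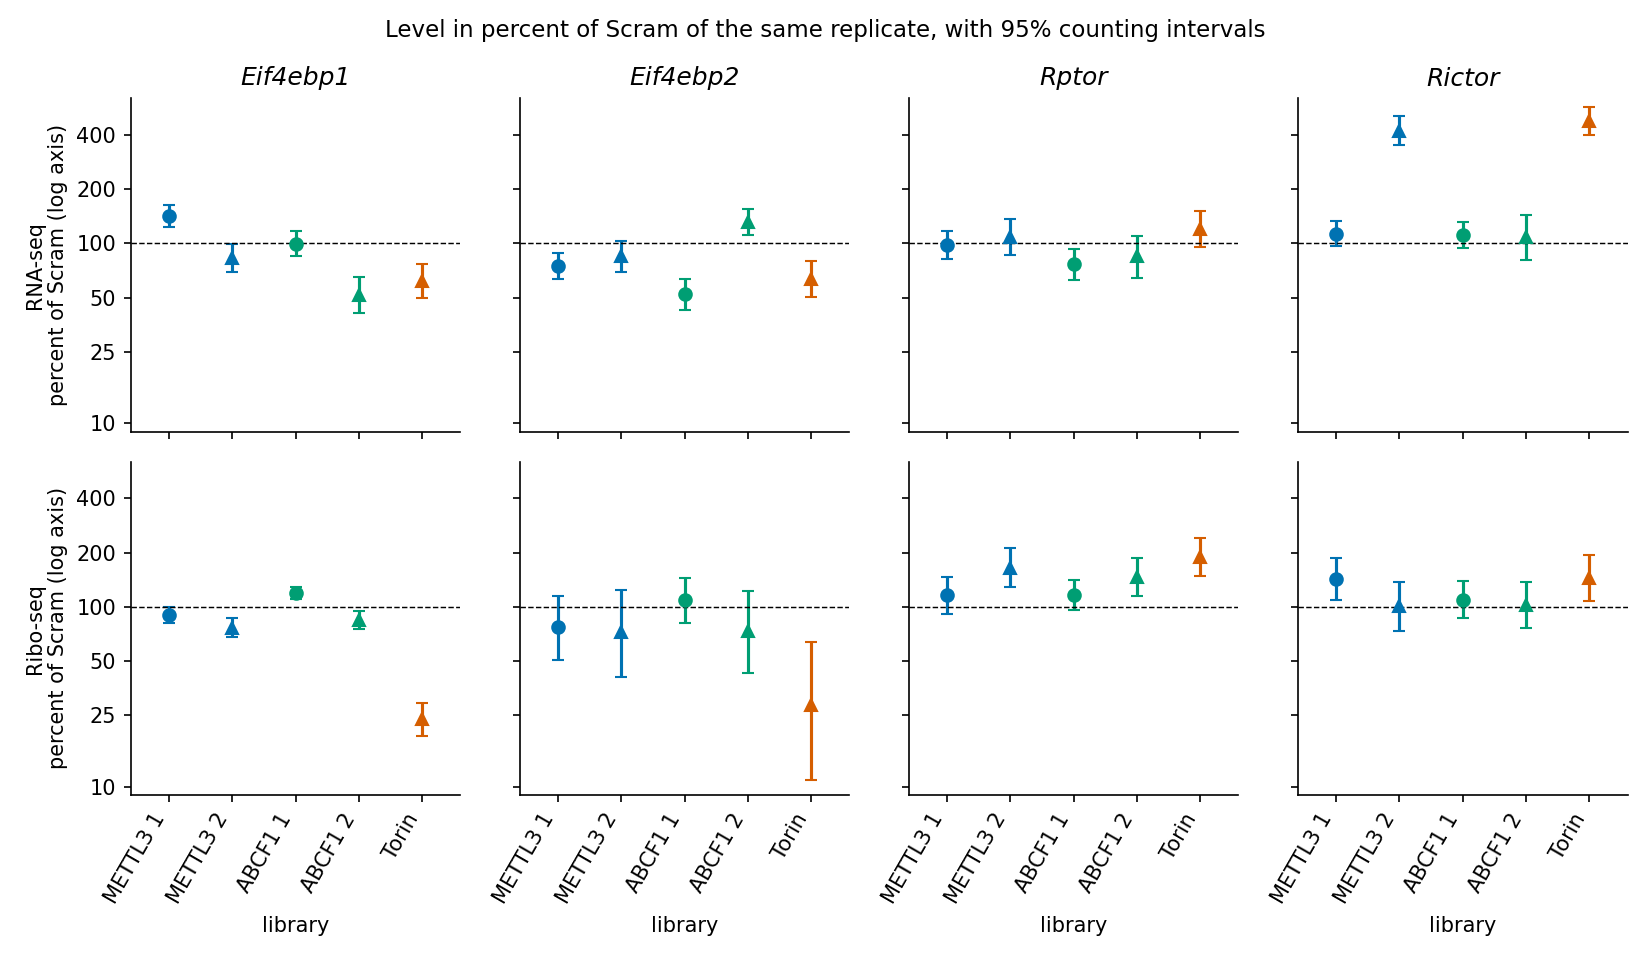
Level in percent of Scram of the same replicate (log axis) for Eif4ebp1, Eif4ebp2, Rptor and Rictor, RNA-seq above and Ribo-seq below, in the 5 compared libraries. Bars are 95% exact intervals of counting error, the dashed line is Scram, circles are replicate 1 and triangles replicate 2 and Torin. The Torin Ribo-seq points of both 4E-BPs lie under 30%, and the Rictor RNA-seq points lie at 477% in Torin and 422% in shMETTL3 replicate 2.

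Other transcripts overlap as well: Mlst8 shares 997 exonic bases with Bricd5, Rps6kb2 shares 1224 with Ptprcap and 45 with Coro1b, Rps6kb1 shares 155 with Rnft1 and Akt1s1 shares 89 with Tbc1d17, all on the opposite strand. In Ribo-seq the counted transcripts of Larp1 and Mlst8 were listed only in the second set. Of all 14 libraries, 9 listed that of Larp1 and 8 that of Mlst8. Replicate 1 listed a transcript 3 nt and 18 nt longer with the same coding length. For these 2 genes levels were therefore summed over transcripts, which departs from the rule of 1 transcript per gene. The fit without the block used the kept transcript and gave Torin changes in Ribo-seq of 2.56 (SE 3.80) for Larp1 and 1.89 (SE 3.15) for Mlst8, which say nothing of these genes since replicate 1 entered as 0. With the block they were -0.18 (SE 0.31) and -0.37 (SE 0.35), and with summed transcripts 0.10 (SE 0.47) and -0.41 (SE 0.31). The sign for Larp1 thus differs between fits, and none of these passed the limma test.

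The other genes of the pathway were read from lists by role. Among assembly factors and partners of the complexes, 5 of 8 could be compared in RNA-seq with Torin, 4 higher and 1 lower, and Prr5l, a Rictor-binding protein, was past 1 with 19.4 against 7.60. In the growth factor arm, 8 of 16 were higher and 8 lower in Ribo-seq, with a median of 0.004. Rhebl1, a relative of the mTOR activator Rheb, had 21.3 against 3.92 on only 26 against 9 reads. The insulin receptor substrate Irs2 had 49.1 against 19.0, and Tbc1d7 of the TSC complex had 6.19 against 17.0 on 12 against 62 reads. Rheb itself had a TE difference of -1.10. In the energy and stress arm, 3 of 7 were higher and 4 lower in Ribo-seq. The inhibitors of complex 1 Ddit4 (21.8 against 66.9) and Sesn2 (2.84 against 7.54, on 9 against 45 reads) were among the lower ones. For Ddit4, Scram replicate 1 (22.6) and both shABCF1 libraries (23.9 and 23.6) were close to Torin, and shMETTL3 had 40.0 and 32.6. The kinase Stk11 had a TE difference of 1.35.

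In the amino acid arm, 14 of 23 were higher and 9 lower in Ribo-seq with Torin, with a median of 0.08. Genes past 1 included Kptn of the KICSTOR complex in RNA-seq (7.31 against 2.41) and Lamtor4 of the Ragulator complex in TE (-1.26). The Kptn values rest on only 11 against 13 reads. Among substrates and effectors, 12 of 16 were higher and 4 lower in Ribo-seq, with a median of 0.52. Rps6, the S6 kinase substrate, had 385 in Torin against 1388, but every replicate 1 library was lower, at 254 to 354. Maf1, a repressor of RNA polymerase III, had 118 against 54.1. The kinase Sgk1 was higher in RNA-seq (13.6 against 6.05), while TE differences were -1.15 for Eif4b and 1.11 for Foxo1. The Foxo1 RNA-seq values rest on 8 reads in Torin against 49 in Scram replicate 2. None of these 5 lists, with 6, 16, 8, 23 and 17 genes tested in Ribo-seq, had a member past the limma test without the block. With it Rps6 was the 1 gene that fell in Ribo-seq (-2.03, SE 0.31, limma adjusted p = 0.0297), where 1.17% of all genes passed as lower. That call was lost without any 1 of the 4 knockdown libraries.

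With METTL3 knockdown, Ndrg1, whose protein is a substrate of Sgk1, was the 1 gene of these lists past 1 in both replicates, with Ribo-seq levels of 51.6 and 61.4 against 104 and 199. With ABCF1 knockdown there were 0. In eIF4F and poly(A) binding, the machinery that 4E-BPs restrain, 2 of 8 were higher and 6 lower in Ribo-seq with Torin, with a median of -0.34. Pabpc1, the poly(A)-binding protein and itself a TOP mRNA, had 34.1 against 227 and fell with the block (-2.79, SE 0.27, limma adjusted p = 0.0102).

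TOP mRNAs, the class that Larp1 binds, had lower Ribo-seq levels with Torin. Of 17 translation-related TOP genes compared, 17 were lower, 11 of them past -1, with a median of -1.48 against 0.01 for all genes. Tpt1 had 407 against 3748, Eef1a1 had 1051 against 8457, Eef1b2 had 340 against 2097 and Rack1 had 657 against 2815, and 7 of the 17 passed with the block, where 1.17% of genes passed as lower. With the block and 1 library left out, 2 (without shMETTL3 replicate 2) to 10 (without either Scram library) of them passed. In simulated data that fit called unchanged genes too. Their RNA-seq median was 0.11. The Ribo-seq difference of Eif4ebp1 (-2.07) is close to that of Rack1 (-2.10), while Larp1 itself was at -0.14. In RNA-seq Eif4ebp1 was at -0.68, whereas Rack1 had 717 in Torin against 705 in Scram replicate 2, so the likeness is in Ribo-seq only.

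Genes with the most similar profile were sought by root-mean-square distance over the 10 same-replicate differences (5 per assay), among genes with at least 20 reads in all 14 libraries. For Eif4ebp1 these were Tmem123 (0.36), Tomm20 (0.37) and Prelid3b (0.37), against a median distance of 0.85 over 4099 genes, and their Torin Ribo-seq differences were -1.97, -1.62 and -1.32. For Larp1 they were Hspa9 (0.13), Map4k4 (0.15) and Nup133 (0.16), against a median of 0.42 over 4100 genes, with Torin Ribo-seq differences of -0.17, 0.02 and -0.03. The Torin differences entered the distance, so their likeness follows from the selection. Distances were not scaled to the size of a member's differences, so those of Eif4ebp1 and Larp1 cannot be compared.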

How the data were processed

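The authors deposited RPKM per Ensembl transcript in each file; per the submitters' processing notes the tools were cutadapt and Bowtie and the build GRCm38, with versions and annotation not given in the sources used here. Identifiers were matched to GENCODE M21 (22356 of 22453 matched, 97 did not), and per gene the transcript with the highest mean RPKM was kept. RPKM times length fell on whole multiples of 1 step (tolerance 0.02 reads) for 98.7% to 98.8% of footprint and 80.5% to 85.4% of RNA values, which gave depth and reads. The lowest depth limits the precision, and intervals cover counting error only.

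Tested were genes with mean RPKM of at least 1 that a share of 0.5 or more of a fit's libraries listed (9021 in RNA-seq, 9534 in Ribo-seq, 9428 in TE) on log2 of median-scaled RPKM + 1, unlisted values being 0. Differences are on that scale, which understates the change of low genes, and percentages are ratios of levels. limma 3.58.1 in R 4.3.3 (eBayes with trend, 3, 3 and 6 residual degrees of freedom) fitted groups without a replicate block, TE as an interaction, with Benjamini-Hochberg adjusted p under 0.05 as the call. Deviations of replicate 1 libraries from group means had correlations of 0.82 to 0.88 (RNA-seq) and of 0.91 to 0.94 (Ribo-seq), so numbers pair the libraries; Torin took the level of replicate 2 in the block.

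Simulated data held changes in Ribo-seq of METTL3 knockdown or Torin only, and only Ribo-seq calls were checked. On them the fit without the block called none of the changed genes, and the blocked Torin fit also called unchanged ones. Named are all 10 members and list genes differing by at least 1 log2 unit from Scram in every replicate, at most 4 per list and comparison; some of these are not reported here. Members and lists were chosen with earlier results of these data known. Alternatives were the block, no scaling, quantile normalization, a pseudocount of 0.1, no filter, summed transcripts and each replicate left out. Sequences are from GENCODE M21 and RefSeq (GRCm38.p6), aligned with Biopython 1.88.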

Additional observations from a re-analysis of the deposited data

How the results depend on the processing

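On simulated data (Ribo-seq of METTL3 knockdown and Torin only) the limma fit without the block made no calls, so its counts of 0 show no stability. Counts of genes past the limma threshold were 0 in all 9 comparisons, also with any 1 replicate left out. With the replicate block they became 1 for METTL3 knockdown in Ribo-seq, and for Torin 10 (RNA-seq), 122 (Ribo-seq) and 54 (TE). With the block and 1 library left out, counts ran from 0 to 304 (METTL3 in Ribo-seq), 0 to 2 (METTL3 in TE), 0 to 119, 0 to 95 and 0 to 91 (ABCF1 in RNA-seq, in Ribo-seq and in TE), and 0 to 35, 40 to 259 and 1 to 120 (Torin, same order), and stayed at 0 for METTL3 in RNA-seq. The highest counts came without Ribo-seq Scram replicate 1 (304, 95 and 259), RNA-seq shABCF1 replicate 1 (119, 91 and 35), RNA-seq shABCF1 replicate 2 (120) and RNA-seq shMETTL3 replicate 1 (2), and the lowest for Torin in Ribo-seq without shABCF1 replicate 2 (40) and in TE without either Ribo-seq Scram library (1). The other nonzero counts over 2 were 3 (METTL3 in Ribo-seq), 32 (Torin in RNA-seq), 47, 66, 81 and 245 (Torin in Ribo-seq), and 4 to 98 (Torin in TE, with 10, 11, 12, 13, 16 and 17 between). Without the filter on low values they became 16 in Ribo-seq and 57 in TE for Torin, and with a pseudocount of 0.1 they became 25 in TE. The count of members past the threshold became 1 for Torin in Ribo-seq with the replicate block (Eif4ebp1), and the block changed no other call of a member. Of 234 refits of 18 fitted member changes, 222 kept their direction and their side of the threshold, 1 passed it and 11 changed sign, all with Torin in Ribo-seq and none past the threshold. Larp1 (2.56) became -0.18 with the block and ran from -0.14 to 5.37 with 1 library left out (without Scram replicate 1 and 2). Mlst8 (1.89) became -0.37 with the block, -0.41 with summed transcripts and ran from -0.45 to 4.34 in the same way. Mtor (-0.11) became 0.25 with the block, 0.24 without scaling, 0.0111 without the filter, and 0.02 to 0.44 without Scram replicate 1, shMETTL3 replicate 2 or shABCF1 replicate 2. Of 450 recomputed same-replicate differences, 37 moved by more than the spread between replicates (or the counting interval in Torin), 29 of them without scaling. The block with 1 library left out, or with summed transcripts, was added after seeing the data; with summed transcripts Eif4ebp1 stayed past the threshold in Ribo-seq with Torin (-1.93). Depth limits Eif4ebp2, Mlst8 and Rps6kb2, whose Torin libraries held 7, 38 and 44 Ribo-seq reads.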

Other observations

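Larp1b, the paralog of Larp1, had a high Ribo-seq level in Torin, where Larp1 was near Scram. Its Ribo-seq level was 189 in Torin (676 reads), against 16.5 and 26.1 in Scram, 15.7 and 41.5 in shMETTL3, and 10.99 and 19.2 in shABCF1. Torin lies above all 6 other libraries, though the share of all genes with Torin highest was not computed. For Larp1b the difference from Scram replicate 2 was 2.81 (log2), with a TE difference of 1.98. Its RNA-seq level was 11.96 in Torin (28 reads) and 3.93 to 8.58 elsewhere. With the replicate block Larp1b rose with Torin in Ribo-seq by 2.67 (SE 0.32, limma adjusted p = 0.0152; lost without shABCF1 replicate 2, adjusted p = 0.0664), and without it the fitted change was 3.13 (SE 0.74, limma adjusted p = 0.891). In RNA-seq and TE it did not pass in either fit, the blocked TE change being 1.64 (SE 0.49, limma adjusted p = 0.306).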
